A study of Caenorhabditis elegans with 24 samples.

Results

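Embryos of the wild-type Caenorhabditis elegans strain N2 were compared according to the temperature at which their grandparents had been reared, with every mother reared at 20 °C. The comparison takes 6 of the 24 arrays of the study by their labels: 3 arrays of generation 3 embryos with grandparents at 25 °C and 3 of generation 3 embryos with grandparents at 20 °C. Each array was hybridised with amplified RNA of 50 embryos at the 4-cell stage, collected apart from the other samples, and array 1 of one group was scanned on the same day as array 1 of the other, and likewise for 2 and 3. The other 18 arrays are N2 embryos of generation 2, whose mothers were reared at 25 °C or at 20 °C and whose grandparents were reared at 20 °C, and the same 4 conditions in HC445, which is labelled sid-1(qt9) with a suspected loss of haf-6. All animals had spent at least 3 generations at 20 °C beforehand and ate Bacillus subtilis RL1275, a strain that does not sporulate, in place of the usual Escherichia coli. The 25 °C line was returned to 20 °C for the mothers' generation, and the plates of both lines were then stacked together where possible, with a small offset in time.

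A 4-cell embryo carries mostly messenger RNA that its mother loaded into the oocyte, because transcription from the embryo's own genome has hardly begun. In samples that hold only such embryos, differences therefore mainly concern what the mother put into the egg. Whether RNA from the mother's own tissues was also present could not be checked here. In C. elegans some responses outlast the generation that was exposed, and small RNAs and chromatin marks are the best known carriers of such inheritance; sid-1 encodes a channel that lets double-stranded RNA into cells, and haf-6 encodes a half-molecule ABC transporter linked to RNA interference.

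Values are log2 of the processed spot signal, expressed relative to the array's own 75th percentile, so negative values lie below that percentile. The 6 arrays had 10182 to 12381 probes well above background out of 15208, and their 75th percentile lay between 31253 and 43398 intensity units. Their values correlated with r of 0.973 to 0.986 within the 25 °C group, 0.972 to 0.980 within the 20 °C group and 0.965 to 0.983 between the groups. The probe IDs could not be paired with gene names, so genes are given by ID and only a few of them are printed, and the labelled stage could not be checked against its marker genes. In RNA from whole embryos, fewer cells with a transcript and less transcript per cell cannot be told apart.

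Few genes separated the embryos of 25 °C grandparents from those of 20 °C grandparents, and most of these were lower after 25 °C. Of 11637 genes tested, 13 (0.112%) passed an adjusted p of 0.05 (limma, two-sided, Benjamini-Hochberg), 2 of them higher (0.0172%) and 11 lower (0.0945%). At an unadjusted p under 0.05 there were 544 genes, or 4.67%. A change of at least 2-fold, passing the test or not, was seen as a rise in 239 genes and as a fall in 669, while the median over all genes tested was -0.02 on the log2 scale. With the scan day as a block in the fit, 27 genes (0.232%) passed, 3 higher (0.0258%) and 24 lower (0.206%). These include all 13 and add 14 whose adjusted p without the block lay between 0.0782 and 0.399. Both fits took the spread of each gene from all 24 arrays. With only the 6 arrays, 0 genes passed by limma without the block (475 at an unadjusted p under 0.05), and 0 with it (820). The 13 genes came from the dimmer part of the array, 6 from the low and 7 from the middle class of mean signal and 0 from the high class, each class holding 3879 genes. The median SE of the log2 fold change was 0.68, 0.31 and 0.16 in the low, middle and high class.

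In both rises every 25 °C array lay above every 20 °C array, and both genes had been far higher again after 25 °C mothers. WBGene00019611 had log2 signals of -2.34, -2.42 and -1.95 in embryos of 25 °C grandparents, against -4.79, -4.62 and -3.73 in embryos of 20 °C grandparents. The groups did not overlap, and the gap on each scan day, 2.45, 2.20 and 1.78, was larger than the spread within either group. The difference was 2.14 ± 0.35 (SE) on the log2 scale or 4.41-fold (limma adjusted p = 0.0187, or 0.00269 in the fit with the scan-day block). WBGene00008681 had log2 signals of -4.27, -3.85 and -4.64 in embryos of 25 °C grandparents, against -5.93, -6.23 and -5.60 in embryos of 20 °C grandparents. Its groups did not overlap either, and it was higher after 25 °C on each scan day, by 1.66, 2.38 and 0.96. It rose by 1.67 ± 0.31 (SE), which is 3.17-fold (limma adjusted p = 0.0252, and 0.0121 with the block).

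Among the falls measured on all 6 arrays, 2 are given by their values. WBGene00000713 had log2 signals of -7.91, -7.32 and -6.44 after 25 °C grandparents, against -4.70, -2.18 and -2.95 after 20 °C grandparents, and it was above background on all 6 arrays. WBGene00001386 had log2 signals of -6.56, -5.31 and -4.77 after 25 °C grandparents, against -3.47, -0.85 and -2.21 after 20 °C grandparents. In both genes the groups stood apart, but the 20 °C arrays were themselves spread over more than 2 log2 units, with replicate 2 the brightest. WBGene00000713 changed by -3.95 ± 0.70 (SE), or 15.4-fold lower (limma adjusted p = 0.0192), and WBGene00001386 by -3.37 ± 0.63 (SE), or 10.4-fold lower (limma adjusted p = 0.0286). On the 3 scan days in turn the difference was -3.21, -5.14 and -3.49 for WBGene00000713 and -3.09, -4.46 and -2.57 for WBGene00001386, so each day showed the fall.

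**Figure D1:**
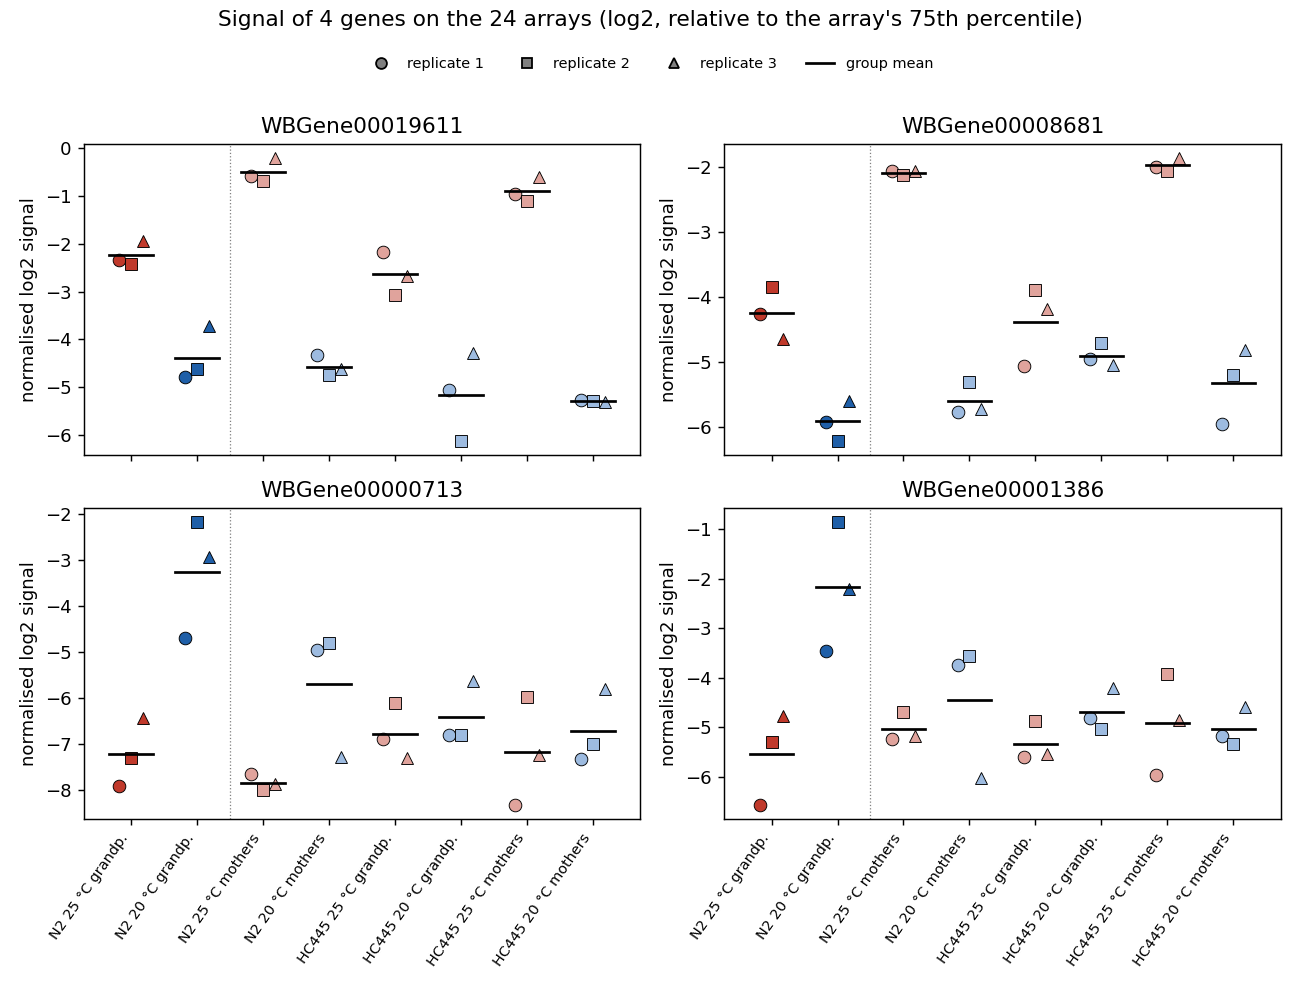
Normalised log2 signal (vertical axis, 0 being the array's 75th percentile) of the 2 genes that rose and the 2 measured falls of largest size, on all 24 arrays by group (horizontal axis), with symbols for the replicate number and a bar for the mean of each group. The 3 arrays of N2 25 °C grandparents and the 3 of N2 20 °C grandparents, left of the dotted line, do not overlap in any panel, and the 2 falls are brightest in the N2 20 °C grandparents.

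The brightest 20 °C array was that of replicate 2 in 8 of the 11 falls, of replicate 3 in 2 and of replicate 1 in 1. Of the 11, 8 were above background on all 6 arrays, with log2 fold changes between -3.95 and -2.29, and 3 were not well above background on any array of 25 °C grandparents, so that only a lower limit of their fall is known. These 3 were at least 8.13-fold lower (means of -10.32 after 25 °C and -6.92 after 20 °C; limma adjusted p = 0.0291), at least 3.60-fold lower (-12.13 and -8.19; adjusted p = 0.0192) and at least 16.21-fold lower (-11.43 and -6.02; adjusted p = 0.0192). Such a limit compares the 20 °C mean with the detection level of each 25 °C array, which is the dimmest probe still well above background there, or with the probe itself if it was brighter than that level. One of the 3 includes a value at the lowest signal of the 25 °C replicate 3 array, on which 1653 probes were tied. Only the N2 20 °C grandparents had these 3 genes well above background on all arrays of a group, so the genes entered the tests through it. Their adjusted p therefore only describes them and is no separate support for the fall. The median log2 fold change of the 11 was -3.13, or -2.99 with the 3 genes at their limit.

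All 13 genes had groups that did not overlap, and all 13 differed in the same direction on each of the 3 scan days; since the genes were picked on these arrays, this describes them and does not test them again. Among the 11448 genes with a value on all 6 arrays, the groups did not overlap with 25 °C higher in 283 (2.47%) and with 25 °C lower in 555 (4.85%). The 3 days agreed in direction for 1182 of these genes as higher (10.3%) and for 1981 as lower (17.3%). The size of the falls varied by day, with a median over the 11 genes of -2.54 for replicate 1, -4.13 for replicate 2 and -2.94 for replicate 3, and in 10 of the 11 genes the widest gap was that of replicate 2.

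The number of calls rested on single arrays. Without 25 °C replicate 1, 2 or 3 it was 1, 1 and 19, and without 20 °C replicate 1, 2 or 3 it was 57, 0 and 2. The 57 genes include all 13, with 55 lower and 2 higher, and the 19 include 12 of the 13. Of the 13, 0 passed without 25 °C replicate 1, where the 1 call was another gene. Without 25 °C replicate 2 the 1 call was among the 13, and without 20 °C replicate 3 so was 1 of the 2. Removing the 20 °C array of replicate 2 left 321 genes at an unadjusted p under 0.05. Under quantile normalization, and likewise under the deposited values, 1 gene passed and it was higher, while 13 and 14 genes passed under these scalings once the fit held the scan day as a block (4 higher with 9 lower, and 4 higher with 10 lower). The 13 genes had the same direction in each refit without 1 array and under both scalings. Of the genes named above, WBGene00019611 missed the threshold without 25 °C replicate 1 (limma adjusted p = 0.0990), 25 °C replicate 2 (0.0760) or 20 °C replicate 2 (0.233). WBGene00008681, WBGene00000713 and WBGene00001386 each missed it in 4 of the 6 refits without 1 array, those without 25 °C replicate 1 or 2 or without 20 °C replicate 2 or 3, with adjusted p of at most 0.270, 0.270 and 0.354. Without the block, the 1 gene that passed under either scaling was WBGene00019611. There WBGene00008681 missed the threshold under quantile normalization (limma adjusted p = 0.0839) and under the deposited values (0.0891).

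**Figure D2:**
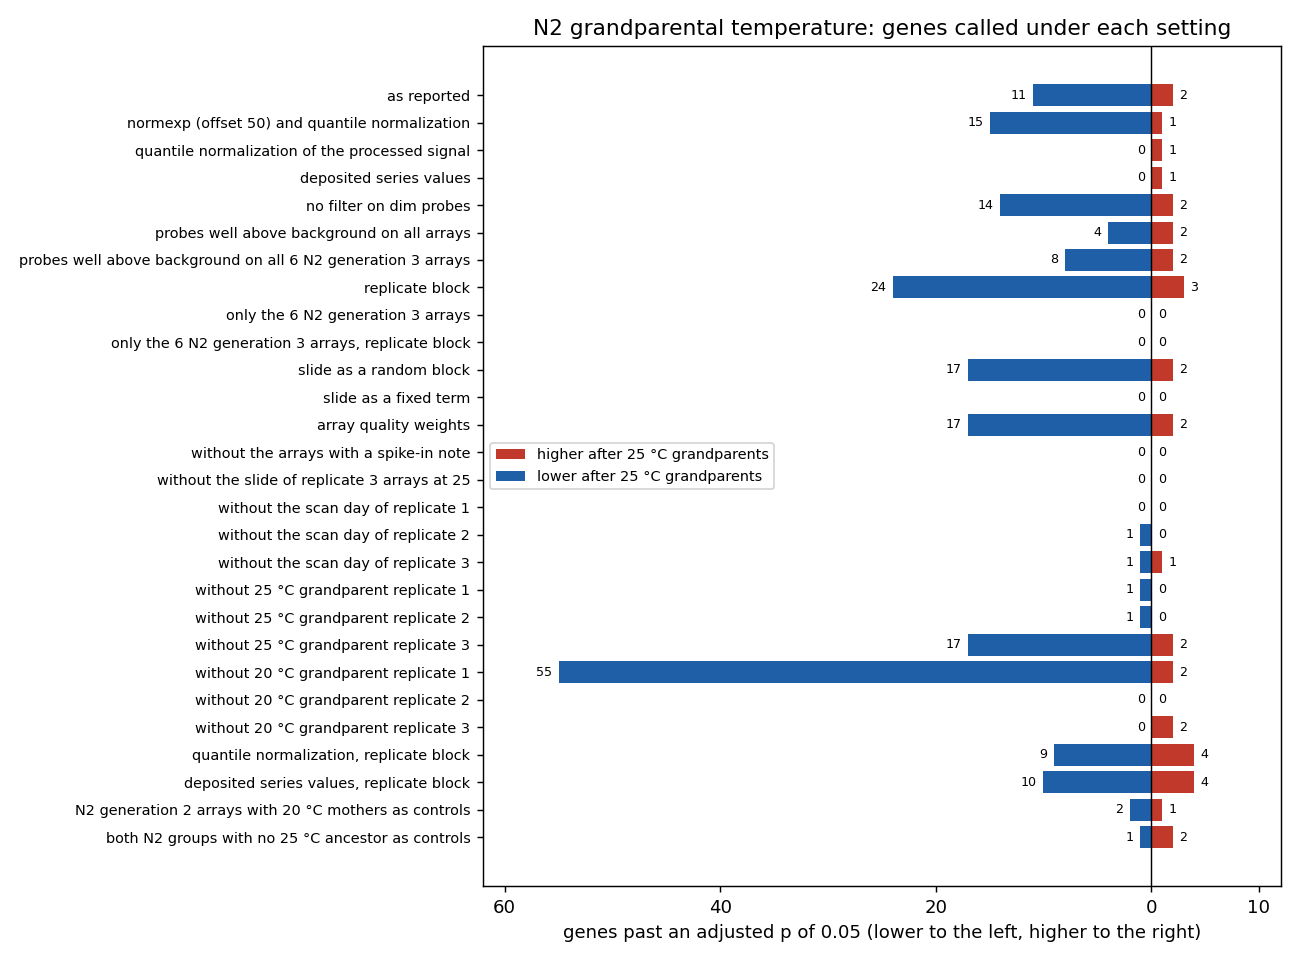
Number of genes past an adjusted p of 0.05 for N2 grandparental temperature (horizontal axis, genes higher after 25 °C grandparents to the right in red and lower to the left in blue) under the reported setting and each alternative (vertical axis). The bars run between 0 genes and the 55 lower and 2 higher genes seen without the 20 °C array of replicate 1.

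The 11 falls were then set beside the rest of the study. They had been picked on these 6 arrays for a high 20 °C group, and 3 of them were well above background on all arrays of that group and of no other, so they entered the tests through it; what follows describes them and tests nothing. In 10 of the 11 genes the N2 embryos of 20 °C grandparents had the highest mean of all 8 groups, as in 15.6% of all genes tested, and in 5 of the 11 the N2 embryos of 25 °C grandparents had the lowest, as in 12.5% of all genes. Each gene was centred on its mean over the 24 arrays, and the median over the 11 genes was taken per array. It was -1.27, -0.77 and -0.40 on the arrays of 25 °C grandparents, against 1.16, 3.28 and 2.54 on those of 20 °C grandparents. On the other 18 arrays it ran between -1.42 and 0.94, with a median of -0.46. For these genes the 25 °C arrays lay inside the range of the other 18 arrays and the 20 °C arrays above it. That range includes arrays with an ancestor at 25 °C, such as N2 25 °C mothers at -1.18, -0.57 and -1.42. Of the other arrays without such an ancestor, the lowest was HC445 20 °C mothers replicate 1 at -0.52. The 25 °C grandparent arrays of replicates 1 and 2 lay below it.

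**Figure D3:**
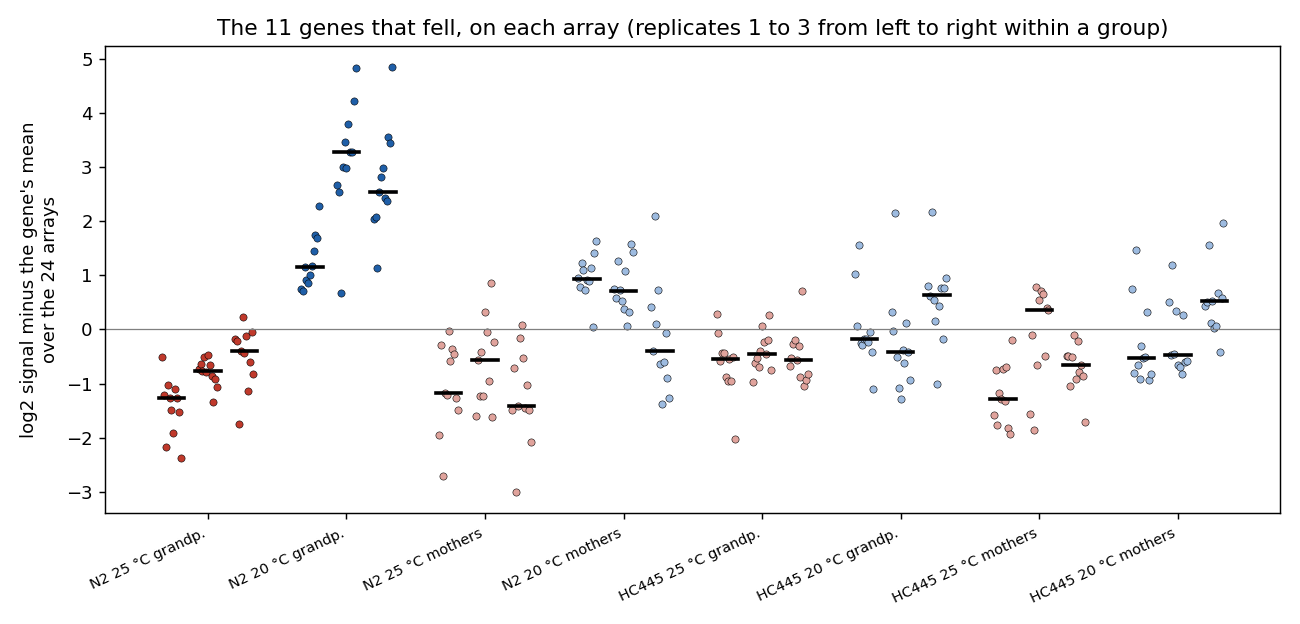
Log2 signal of each of the 11 genes that fell, minus the gene's mean over the 24 arrays (vertical axis), on every array, with replicates 1 to 3 of a group (horizontal axis) side by side and a bar at the median of the 11 genes. The medians of the 3 arrays of N2 20 °C grandparents, 1.16, 3.28 and 2.54, are above those of all the other arrays.

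A second set of N2 embryos without any ancestor at 25 °C exists in generation 2, and it gives another reading of the same genes. The N2 20 °C grandparent arrays exceeded these generation 2 arrays by a median of 2.11 on the log2 scale over the 11 genes (range -0.54 to 3.39), by at least 2-fold in 10 of them, where the median over all genes tested was -0.02. The 25 °C grandparent arrays lay below the same generation 2 arrays in all 11 genes, by a median of -1.22 (range -3.09 to -1.01), where the median over all genes was -0.06. The arrays that chose the genes enter both differences, so neither is a test of them. Over all genes, the 2 control groups differed at an adjusted p of 0.05 in 0 genes (0%; 391 at an unadjusted p under 0.05, or 3.36%, limma), with 437 at least 2-fold higher in generation 3 and 336 at least 2-fold lower. Set against the generation 2 controls instead, the 25 °C grandparent embryos differed in 3 genes (0.0258%), 1 higher (0.00859%) and 2 lower (0.0172%), of which 2 were among the 13. Set against both control groups they differed in 3 genes (0.0258%), 2 higher (0.0172%) and 1 lower (0.00859%), all among the 13. In each of these the generation, and so the time of collection, differs between the groups as well.

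WBGene00015115 was the 1 fall in which the N2 20 °C grandparents did not have the highest mean, and it was picked out after its values were seen. It had log2 signals of -6.67, -5.27 and -6.26 after 25 °C grandparents, against -3.34, -3.83 and -3.37 after 20 °C grandparents. The 3 other groups without an ancestor at 25 °C had higher means than the -3.51 ± 0.27 (SD, n = 3) of the N2 20 °C grandparents: -2.98 ± 0.49 (SD, n = 3) in N2 of generation 2, -2.53 ± 0.35 in HC445 of generation 3 and -3.10 ± 0.20 in HC445 of generation 2. It fell by 2.55 ± 0.40 (SE) on the log2 scale, 5.86-fold (limma adjusted p = 0.0187), and had a difference of -3.09 ± 0.40 from the generation 2 controls (limma adjusted p = 0.00138). The same gene was lower after 25 °C mothers in N2, by -3.84 ± 0.40 (adjusted p = 3.8e-06), and after 25 °C grandparents in HC445, by -2.43 ± 0.40 (adjusted p = 0.00933). In N2 generation 3 it missed the threshold without 25 °C replicate 1 (limma adjusted p = 0.156) or 20 °C replicate 2 (0.0747) or 3 (0.0647).

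The genes were then followed back to generation 2, whose N2 arrays share none with the generation 3 comparison, though both use one estimate of the spread per gene and share 3 slides. One slide held the 25 °C replicate 3 arrays of both generations, one the replicate 1 array of 20 °C grandparents with those of 25 °C and 20 °C mothers, and one the replicate 2 arrays of 20 °C grandparents and of 25 °C mothers; the correlation within slides was 0.51. After 25 °C mothers, 636 of 11637 genes (5.47%) passed in N2, 247 higher (2.12%) and 389 lower (3.34%). Both rises were among the 247. WBGene00019611 had log2 signals of -0.59, -0.70 and -0.22 after 25 °C mothers, against -4.33, -4.75 and -4.62 after 20 °C mothers, a difference of 4.07 ± 0.35 (SE; limma adjusted p = 2.46e-07). WBGene00008681 had log2 signals of -2.06, -2.13 and -2.07 after 25 °C mothers, against -5.78, -5.31 and -5.72 after 20 °C mothers, a difference of 3.52 ± 0.31 (SE; limma adjusted p = 2.98e-07). For both genes the embryos of 25 °C grandparents thus lay between the embryos of 25 °C mothers and those with no ancestor at 25 °C, without overlap. The change in generation 3 was smaller than that in generation 2, with a difference (generation 3 minus generation 2) of -1.92 ± 0.49 for WBGene00019611 (limma adjusted p = 0.0493) and of -1.85 ± 0.43 for WBGene00008681 (limma adjusted p = 0.0318).

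Of the 11 falls, 2 were among the 389 genes lower after 25 °C mothers. One is WBGene00015115 and the other, named because the count is so small, is WBGene00009215. WBGene00009215 had log2 signals of -7.15, -7.35 and -6.81 after 25 °C grandparents, against -5.88, -3.96 and -4.59 after 20 °C grandparents, without overlap, and changed by -2.29 ± 0.44 (SE; limma adjusted p = 0.0331). It missed the threshold in 4 of the 6 refits without 1 array (25 °C replicate 1 or 2, 20 °C replicate 2 or 3), with a limma adjusted p of at most 0.423. After 25 °C mothers it changed by -2.38 ± 0.44 (adjusted p = 0.00139). Over all 11 falls the median change after 25 °C mothers was -1.52, with each of the 11 negative (range -3.84 to -0.09), where the median over all genes was -0.06. The 11 genes tended to vary together over the 18 arrays outside the comparison (median pairwise r of 0.52, range -0.25 to 0.91). They are therefore not 11 separate readings. WBGene00000713 had -2.16 ± 0.70 (adjusted p = 0.0748) and WBGene00001386 -0.59 ± 0.63 (adjusted p = 0.708) after 25 °C mothers, and neither passed.

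**Figure D4:**
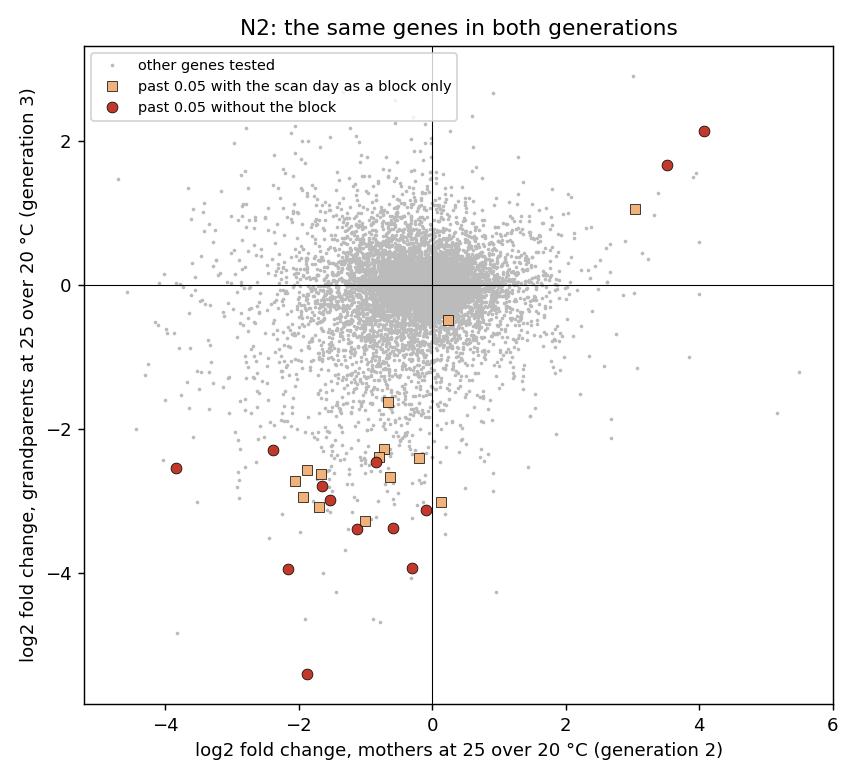
Log2 fold change in N2 embryos of 25 °C over 20 °C mothers in generation 2 (horizontal axis) and of 25 °C over 20 °C grandparents in generation 3 (vertical axis), with 1 point per gene tested. Red circles mark the 13 genes past 0.05 in generation 3, orange squares the 14 that passed only with the scan day as a block, and grey points the rest; both rises lie at the upper right and all 11 falls below the horizontal line.

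Most of the change seen after 25 °C mothers was not seen one generation later. The genes were chosen for passing the test in generation 2, which favours a larger change there than in generation 3. Among the 247 genes that rose after 25 °C mothers the median change was 0.02 in generation 3, against 1.26 in generation 2 (log2), and 131 of the 247 were positive in generation 3 beside 45.4% of all genes tested. The 389 genes that fell had a median of -0.10 in generation 3, against -1.45 in generation 2, and 62.7% of them were negative in generation 3 beside 54.6% of all genes. By scan day the generation 3 medians of the higher genes were 0.01, 0.03 and 0.01, and those of the lower genes -0.08, -0.14 and -0.07, for replicates 1, 2 and 3, beside -0.07, -0.03 and -0.01 for all genes.

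The difference between the effects of the 2 generations passed the test in 171 genes (1.47%), 86 with a positive difference (generation 3 minus generation 2, 0.739%) and 85 with a negative one (0.73%), and in 389 once the scan day was a block. Of the 171, 161 were among the 636 genes of generation 2 and 2 among the 13 of generation 3. The median size of the change in the 171 genes was 1.67 after 25 °C mothers and 0.21 after 25 °C grandparents. Because the 171 were chosen by the difference between these changes, the medians only describe them. Without 25 °C grandparent replicate 1, 2 or 3 the count was 93, 81 and 91, and without 20 °C grandparent replicate 1, 2 or 3 it was 129, 100 and 86.

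WBGene00003635 was among the 86 genes with a positive difference. It had log2 signals of -3.16, -3.16 and -2.81 after 25 °C grandparents, against -2.64, -2.87 and -3.20 after 20 °C grandparents. These groups overlapped, and the change was -0.14 ± 0.25 (SE; limma adjusted p = 1.00). After 25 °C mothers it had been -6.85, -7.01 and -6.23, against -3.02, -3.10 and -3.13 after 20 °C mothers, a change of -3.61 ± 0.25 (adjusted p = 1e-08). WBGene00010971 was among the 85 with a negative difference. It had log2 signals of -6.38, -6.89 and -6.26 after 25 °C grandparents, against -7.08, -6.0 and -6.09 after 20 °C grandparents, with a change of -0.12 ± 0.38 (adjusted p = 1.00). After 25 °C mothers it had been -2.03, -2.53 and -1.92, against -6.15, -6.83 and -5.48 after 20 °C mothers, a change of 3.99 ± 0.38 (adjusted p = 1.03e-06).

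The effect of grandparental temperature in N2 was also tested against that in HC445. In HC445 10 of 11637 genes (0.0859%) passed, 3 higher (0.0258%) and 7 lower (0.0602%). The difference between the strains (N2 minus HC445) passed in 0 genes (0%) by limma, with 257 at an unadjusted p under 0.05 (2.21%), and its median SE was 0.44. For the 11 falls the median change was -0.63 in HC445 (range -2.43 to 0.45), and the median of N2 minus HC445 was -2.92 (range -4.59 to -0.12), a direction that the choice of these genes by their change in N2 favours. Over all genes tested, the adjusted p of the difference was 1.00 for each of the 13. WBGene00019611 was 2.52 ± 0.35 (SE) higher in HC445 embryos of 25 °C grandparents (limma adjusted p = 0.00141), with log2 signals of -2.17, -3.08 and -2.67 against -5.06, -6.13 and -4.29 after 20 °C grandparents. WBGene00008681 had a change of 0.52 ± 0.31 in HC445 (adjusted p = 1.00), and its difference between the strains, 1.14 ± 0.43, did not pass (unadjusted p = 0.0153, limma adjusted p = 1.00).

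The arrays also differed in how many probes they detected. The 3 arrays of 25 °C grandparents had 11849, 12381 and 11906 probes well above background, against 11518, 10182 and 10511 on those of 20 °C grandparents, without overlap. There were 204 probes detected on all 3 arrays of 25 °C grandparents and on none of 20 °C grandparents, and 7 the other way. Choosing probes in this way largely fixes their direction, so their values only describe them: the median log2 fold change of the 204 was 0.71, with 64 of them at least 2-fold higher, and all 7 were at least 2-fold lower. None of the 204 was among the 13 genes, while 3 of the 7 were. Against N2 20 °C mothers the same count for 25 °C grandparents was 80, with 2 the other way, and between the 2 N2 control groups it was 13 for generation 3 and 16 for generation 2. In HC445 it was 17 for 25 °C grandparents and 10 for 20 °C grandparents. Between mothers in HC445 it was above the 80 given here for 25 °C, with 7 for 20 °C. Between mothers in N2 it was 11 for 25 °C and 41 for 20 °C. A large imbalance was therefore not limited to the N2 generation 3 arrays. On the N2 generation 3 arrays the negative control spots also differed between the groups. Their median processed signal was 8.05, 7.84 and 9.62 after 25 °C grandparents, against 11.6, 27.6 and 25.5 after 20 °C grandparents. The part of this background in the detected probes, and in the dimmer falls, was not tested.

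**Figure D5:**
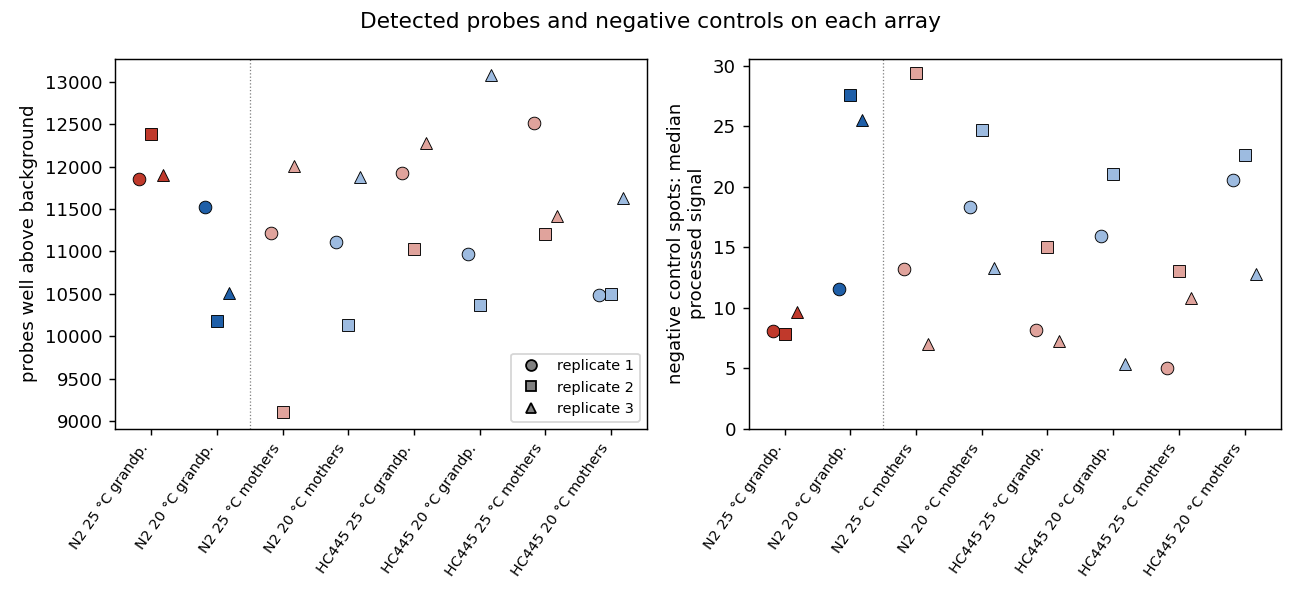
Probes well above background (left panel, vertical axis) and the median processed signal of the negative control spots (right panel, vertical axis, intensity units) on each of the 24 arrays by group (horizontal axes), with symbols for the replicate number. The 3 arrays of N2 25 °C grandparents have more detected probes and dimmer negative controls than the 3 of N2 20 °C grandparents.

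The 6 arrays were on 6 different slides of 14, so no comparison within a slide can be made. The 25 °C replicate 3 array shared its slide with the other replicate 3 arrays of 25 °C groups. This array carries a note of a raised spike-in. Without this array alone, 19 genes passed by limma, 12 of them among the genes called above. Without the whole slide, which also removes arrays of other groups, 0 genes passed by limma (596 at an unadjusted p under 0.05). In both refits WBGene00000713 changed by -4.34 and WBGene00019611 by 2.00, against -3.95 and 2.14 with all arrays. The changes were again -4.34 and 2.00 without all arrays with such a note, which also removes arrays of other groups.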

How the data were processed

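The RNA of 50 embryos per sample went through 2 rounds of amplification by in vitro transcription before Cy3 labelling, per the labels' protocols. Agilent Feature Extraction 9.5.3.1 gave the deposited spot intensity values, per the file headers, and the deposited flags (0 or 1) that mark detected, saturated or outlying spots. The deposited series table holds log2 values with a median of 9.03 in every column; its normalization is not stated in these sources, and its columns follow the order of their own array's signal.

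Here control spots were dropped, outlier spots set to missing (13 to 98 on the 6 arrays), and the array's 75th percentile subtracted from log2 of the processed signal. Probes (1 per gene) entered the tests if detected above background throughout at least 1 group (11637 of 15208). limma 3.58.1 in R 4.3.3 fitted a mean for each of the 8 groups (lmFit, eBayes with trend); contrasts were two-sided with Benjamini-Hochberg adjustment at 0.05. The replicate number is the scan day, per the file headers; deviations of same-numbered arrays correlated with r of 0.21, 0.18 and 0.02, and the fit with it as a block is given beside results it changes. Whether the samples of a group came from different cultures is not stated, so the p-values reflect only the spread among these samples, which may be technical, and an exact test of 3 against 3 cannot go below 0.10. Of the IDs, 0 were found in the gene table given, so the gene lists, the stage markers and the markers of the mother's tissues were not tested. Genes named for the grandparental change are the 2 largest changes per direction measured on all 6 arrays, besides those said to be picked later. For the difference between generations, WBGene00003635 and WBGene00010971 are examples and not the largest. WBGene00006717 and WBGene00016669 had larger differences and are given with the results flagged for a closer look. The comparison, the lists and the alternatives were chosen with earlier results of these data known. The fit was tested on simulated data. Figures were drawn with matplotlib 3.10.9.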

Additional observations from a re-analysis of the deposited data

Results flagged for a closer look

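The effect of 25 °C differed between the generations of N2 in 171 genes (limma test of generation 3 minus generation 2). WBGene00006717 had the largest positive difference, 4.12 ± 0.83 (SE) on the log2 scale, with a change of 0.03 after 25 °C grandparents and -4.09 after 25 °C mothers; its spots on 25 °C mothers replicate 1 and 20 °C grandparents replicate 3 were outliers and dropped from the fit. WBGene00003635 had 3.47 ± 0.35. WBGene00010971 had the negative difference of -4.11 ± 0.54. WBGene00016669 had -4.81 ± 1.12, with changes of -2.13 after 25 °C grandparents and 2.68 after 25 °C mothers that each missed the threshold (limma adjusted p = 0.702 and 0.0502) and 20 °C arrays that varied widely (SD of 2.17 in generation 3 and 1.64 in generation 2, n = 3 each); this difference missed the threshold in 4 of 6 refits without 1 generation 3 array, with a limma adjusted p of at most 0.0931.

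The spike-in probes, which no comparison uses, lay 2.89 above the 75th percentile (log2) on the array of N2 25 °C grandparents replicate 3, against -1.02 to 0.97 on the arrays without a note of raised spike-in. The notes name 6 arrays in all, whose spike-ins lay between 2.22 and 2.93.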

How the results depend on the processing

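The 13 genes of N2 grandparental temperature had the same direction under every alternative listed here in which they were tested, but their number moved. It was 1 under quantile normalization as well as under the deposited values, 6 over the 8391 probes detected on all 24 arrays (2 higher, 4 lower), and 27 with the replicate block. Without the scan day of replicate 2 it was 1, and without that of replicate 3 it was 2, 0 of them among the 13. With either set of other controls, chosen after seeing the data, it was 3. It was 0 with only the 6 arrays (475 at an unadjusted p under 0.05) and the same with the replicate block (820), with slide as a fixed term, which left 3 residual degrees of freedom (731), without the noted arrays (585), without the slide of 25 °C replicate 3 (596) and without the scan day of replicate 1 (533), all by limma. Leaving out 1 array gave 0 to 57. Normexp correction, no filter, probes detected on all 6 arrays, slide as a random block and array weights gave 10 to 19. The strain difference was 18, all positive, with slide fixed and 0 otherwise, the replicate block included. The generation difference was 389 with the replicate block, 390 with slide as a random block, 29 with slide fixed, 6 without the noted arrays, 28 without that slide, 0, 12 and 22 without the scan day of replicate 1 (876 at an unadjusted p under 0.05), 2 or 3, and 81 to 129 without 1 array. Same-numbered arrays did not all deviate together: 4 of 6 correlated best with their own number. The cause of these moves was not tested, and some of the settings also held fewer arrays or genes. Signals near background limit the falls, 3 of which have only a bound.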
